A study of Homo sapiens with 12 samples.

Results

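The cytosolic ribosomal protein genes were followed in LNCaP prostate cancer cells with and without the cochaperone isoform Bag-1L. Members were taken by symbol, as protein-coding genes named RPL or RPS with a number, together with RPSA, RPLP0, RPLP1 and RPLP2, and 90 of the 63677 genes counted met this rule. The 10 S6 kinase genes, whose symbols also begin with RPS, the pseudogenes and the antisense genes were left out. Of the 90 members, 77 encode proteins of the ribosome itself, 43 of the large subunit, 31 of the small subunit and 3 of the stalk. The others were 8 variant copies, 3 readthrough genes with no read in any sample, and RPL7L1 and RPS19BP1. These last 2 met the symbol rule but were classed neither as proteins of the ribosome nor as variant copies. There were at least 10 counts over all samples for 86 members, and an adjusted p was given to 85.

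LNCaP cells are a widely used androgen-responsive line from a human prostate tumour. RNA-seq compared a TALEN control line with a Bag-1L KO line, in which an engineered nuclease had removed the Bag-1L start codon from the BAG1 gene while the start codons of the shorter Bag-1 isoforms were left. Each line was grown in full medium (FM) with fetal bovine serum, or was kept without hormone, in charcoal-treated serum, for 72 h before it was given ethanol (EtOH, the vehicle) or 10 nM dihydrotestosterone (DHT, an androgen) for 16 h. The 12 samples formed 6 groups of 2 biological replicates, control FM, control EtOH, control DHT, KO FM, KO EtOH and KO DHT. KO cells were isolated as single clones by serial dilution, so the deletion and clonal differences cannot be told apart. FM and EtOH differed in serum, hormone deprivation and vehicle together.

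Cytosolic ribosomes are built from a small and a large subunit, each a set of ribosomal proteins on a scaffold of ribosomal RNA, and each protein is needed in matched amounts. Most of these mRNAs are abundant and short. Many begin with a cytosine followed by a run of pyrimidines, the 5′ terminal oligopyrimidine (TOP) motif, through which their translation follows nutrient and growth factor signals that act through mTOR and LARP1.

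The start sequences of members with large and small changes are shown so that the TOP motif can be read beside the values below. Each is 30 bases around the annotated transcription start, 5′ to 3′, taken from RefSeq on GRCh38.p14, and capitals mark the run of pyrimidines that begins at the start. RPL13A and RPL28 had the largest falls in FM in the control line, and RPLP1 and RPLP0 encode stalk proteins. RPL22 and RPL22L1 are a parent gene and its variant copy, RPS27L is a variant copy, and RPL7L1 was placed in neither class. EEF1A1, a translation elongation factor, and NCL, the nucleolar protein nucleolin, stand for genes outside the family.
RPL13A, chr19:49487593-49487622, plus strand: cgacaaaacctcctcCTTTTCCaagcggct
RPL28, chr19:55385917-55385946, plus strand: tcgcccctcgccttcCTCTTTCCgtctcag
RPLP1, chr15:69452803-69452832, plus strand: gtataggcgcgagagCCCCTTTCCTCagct
RPLP0, chr12:120201097-120201126, minus strand: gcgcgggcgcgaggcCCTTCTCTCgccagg
RPL22, chr1:6199581-6199610, minus strand: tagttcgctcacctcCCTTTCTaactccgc
RPL22L1, chr3:170870181-170870210, minus strand: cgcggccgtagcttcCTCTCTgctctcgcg
RPS27L, chr15:63157463-63157492, minus strand: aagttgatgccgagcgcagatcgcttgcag
RPL7L1, chr6:42879601-42879630, plus strand: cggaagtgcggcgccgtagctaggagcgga
EEF1A1, chr6:73521018-73521047, minus strand: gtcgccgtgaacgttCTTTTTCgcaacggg
NCL, chr2:231464470-231464499, minus strand: tcagtctttcgcctcagtctcgagctctcg

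A C at the annotated start followed by at least 4 further pyrimidines, read on the strand of the gene, was found in 42 of the 62 genes of the ribosome that had a promoter entry, or 67.7%. The same letters were at the start of 4.1% of all 35116 promoters in the table. Of the 6 variant copies with an entry, 2 had it. The motif was at the start of 15 of 17 other translation genes, such as EEF1A1, and of 4 of 68 mitochondrial ribosomal protein genes. With the C allowed within 5 bases of the start, 50 of the 62 genes of the ribosome (80.6%) and 21.1% of all promoters had the motif. RPS15A, RPL5 and RPL3L had no entry. These matches describe the annotated sequence and say nothing of the start used in LNCaP cells.

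BAG1, the targeted gene, was lower in KO in all 3 media, although its counts also include the isoforms that were left. BAG1 had 1701.5 and 2702.6 normalized counts (counts divided by the DESeq2 size factor of the library) in control EtOH against 1191.4 and 1103 in KO EtOH. With DHT the control samples had 2198.9 and 2630.7, and the KO samples had 1075.5 and 1113.6. With FM the control samples had 2117 and 1967.7 and the KO samples 1452.2 and 1576.1, where the difference did not pass the threshold (log2 fold change −0.43, adjusted p = 0.0682, DESeq2). The luminal prostate markers KLK3, KLK2, FOLH1, TMPRSS2, KRT8 and KRT18 were counted in every sample, whereas KRT5, TP63 and PTPRC stayed at or below 3.8 normalized counts, KRT14 at or below 30.7, and COL1A1 lay between 370.3 and 1012.6. Gene counts per sample summed to between 20826843 and 30354666.

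Library control EtOH 2 stood apart from its replicate, and the ribosomal protein genes were among the genes that moved. Among the 75 genes of the ribosome with a mean of at least 100 normalized counts, 75 were higher in control EtOH 2 than in control EtOH 1, by a median of 0.525 on the log2 scale. In control DHT, 75 were higher in replicate 2, by a median of 0.311. The other groups had median gaps between −0.127 and 0.136, but in KO most of these genes also moved together. Of the 75, 3 were higher in replicate 2 in KO EtOH, 72 in KO DHT, 69 in KO FM and 26 in control FM. Numbers of members below are therefore not numbers of independent genes. Other short protein-coding genes (transcripts under 1500 bases) moved the same way, with a median deviation from the mean of 12 samples of −0.144 in control EtOH 1 and 0.208 in control EtOH 2. After offsets for transcript GC content and length were fitted within each library, the median gap of the ribosomal protein genes was 0.223 in control EtOH and 0.131 in control DHT. The part of RNA quality or library preparation in these gaps was not tested. Medians or numbers of members called are given below also without these libraries. So are the values of genes described singly in control FM whose call was lost without control EtOH 2. RPS3A and RPS28 are given only by counts and by fold changes of all libraries. Shares of all genes called are those of the DESeq2 fit of all 12 libraries without offsets, or of a fit without control EtOH 2 where named. For other fits they are not given, so the members called there cannot be set against all genes.

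**Figure D1:**
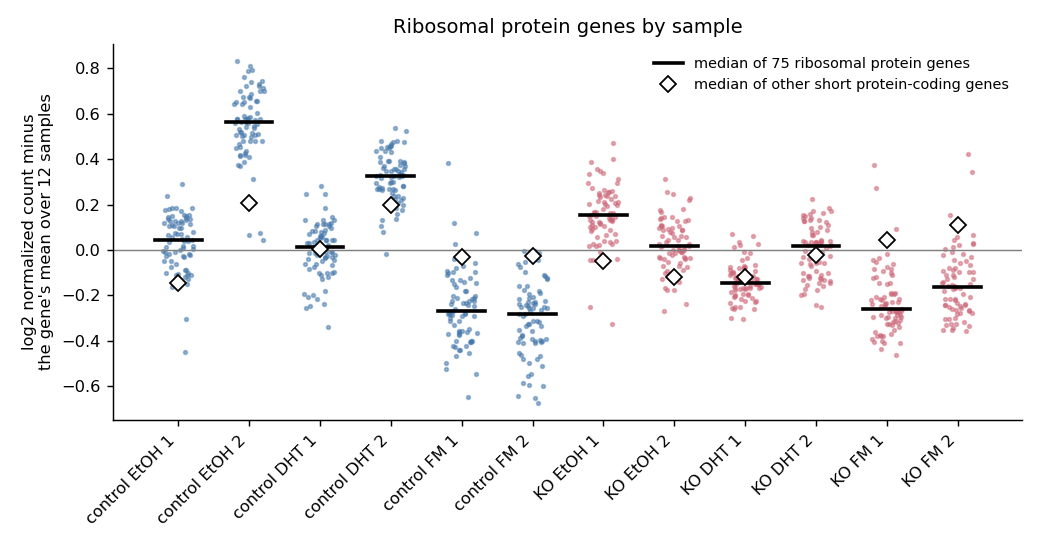
Ribosomal protein genes in each sample. Each point is 1 of 75 genes of the ribosome, the y axis is log2 of its normalized count plus 1 minus its mean over 12 samples, bars are medians and diamonds are medians of other short protein-coding genes. Control EtOH 2 has the highest median (0.562), and both control FM samples (−0.27 and −0.284) and both KO FM samples (−0.262 and −0.161) have the lowest, with KO DHT 1 next (−0.144).

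The members together took between 6.45% and 11.6% of all gene counts in a sample. The share was 10.3% ± 1.95 (SD, n = 2) in control EtOH, 8.47% ± 0.956 in control DHT and 6.57% ± 0.16 in control FM. In KO it was 9.22% ± 0.634 in EtOH, 7.82% ± 0.404 in DHT and 7.14% ± 0.25 in FM. In either line both FM samples lay below both EtOH samples and both DHT samples. With EtOH the control samples (8.89% and 11.6%) overlapped the KO samples (9.67% and 8.77%). A lower share of counts can come from less ribosomal protein mRNA or from more of other mRNAs, and in bulk RNA fewer cells of a kind and less RNA per cell cannot be told apart.

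Levels per length differed widely between members. With CPM (counts scaled to the library total) divided by the median length of the annotated transcripts, 48 of the 77 genes of the ribosome had at least 1000 CPM per kb, 25 had between 100 and 1000, and 4 had fewer than 100. The highest was RPS18, a small subunit protein, at 4540, followed by the stalk gene RPLP1 at 3080 and by RPL7A at 3070. Transcript choice alone moved RPLP1 between 1170 and 5360, so the order of these neighbours is not settled.

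RPS10, RPL17 and RPL36A were among the 4 lowest, encode core proteins of the ribosome. RPS10 had 12.7 CPM per kb, RPL17 had 10.8 and RPL36A had 5.2. Exons of other genes on the same strand covered 84% of RPS10, 96.9% of RPL17 and 43.8% of RPL36A, and HTSeq sets aside reads that it cannot assign to a single gene. RPL26, at 201 CPM per kb, was overlapped over 65.3%, so overlap alone did not order the levels, and its part in the low counts was not tested. Pseudogenes named for RPL36A held 98.2% of the reads of the gene and its pseudogenes together. Over the whole family, 1592 pseudogenes held between 5.35% and 5.98% of the reads of members and pseudogenes in a sample, and reads that align to several places had been set aside. Adding the pseudogene reads to their parent genes changed no count of members called by more than 1.5 times.

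**Figure D2:**
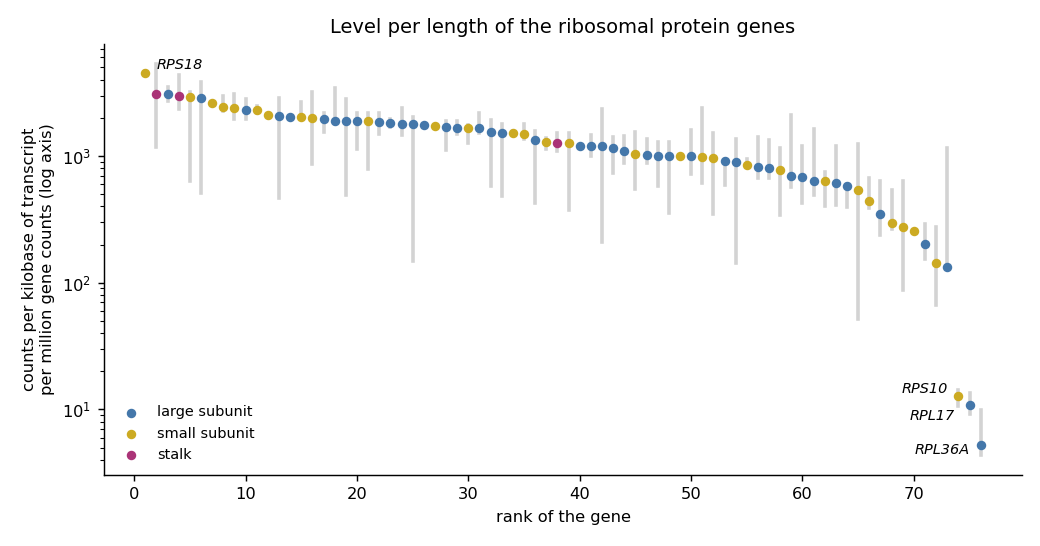
Level of the genes of the ribosome. The y axis (log scale) is the mean CPM per kb of transcript over 12 samples, genes are ranked on the x axis, points use the median transcript length and grey lines span the longest and shortest transcript. RPS10, RPL17 and RPL36A lie lowest of the 76 genes drawn, which had at least 10 counts over all samples, at 12.7, 10.8 and 5.2, far below RPS18 at 4540.

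Ribosomal protein mRNAs were lower in FM than after hormone deprivation with EtOH in the control line. DESeq2 called 70 of the 85 members tested lower and 2 higher at an adjusted p of at most 0.05, where 16.2% of all genes tested were lower, 18.8% higher and 34.9% called in all. The median log2 fold change of the members was −0.567, against −0.009 for all genes and −0.146 for short protein-coding genes. All 67 genes of the ribosome that were called had fallen, 38 of 43 of the large subunit, 26 of 30 of the small subunit and 3 of 3 of the stalk. In 76 members both FM samples lay below both EtOH samples, a pattern found in 32.3% of all genes, and in 3 they lay above, found in 33.5%.

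Without control EtOH 2 the fall in the control line was smaller and reached fewer genes. It was then called in 42 members, all of them among the 70, the median was −0.312 (0.039 for short protein-coding genes), and 4 members were higher, where 12.7% of all genes were lower and 18.1% higher. A change of at least 1.5-fold was then called in 4 members. This fit had a single control EtOH sample, whose spread was assumed to be that of the other groups. With GC and length offsets and all libraries, 69 were lower, 67 of them among the 70, and the median was −0.455.

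RPL13A (chr19:49990767-49996314 on GRCh37, plus strand), a large subunit protein that also acts in translational silencing after interferon, fell most in the control line. It had 56233.6 and 88079.1 normalized counts in control EtOH and 31613.9 and 31639.5 in control FM. The groups did not overlap, and the log2 fold change was −1.19 (SE 0.18, adjusted p = 4.39e-10, DESeq2), or −0.83 without control EtOH 2. RPL28, another large subunit protein, went from 14551.1 and 25596 to 10132.3 and 9287.2, a log2 fold change of −1.05 (SE 0.2, adjusted p = 1.06e-06). RPS15A, of the small subunit, went from 4125.2 and 6045.9 to 2396.4 and 2646.7 (−1.01, SE 0.17, adjusted p = 3.41e-08). Without control EtOH 2, RPL28 stood at −0.58 and RPS15A at −0.71, each still past the threshold.

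A change of at least 1.5-fold was called in 38 members in the control line, 37 of them falls, and in 21.3% of all genes. Beside RPL13A, RPL28 and RPS15A, these included RPLP1, RPS21, RPL13, RPS19, RPS28, RPL36, RPL18, RPS18, RPL37A, RPS16, RPL37, RPL29, RPL34, RPL31, RPL27A, RPS14, RPL7A, RPS13, RPL39, RPS9, RPL15, RPL23, RPS27, RPS15, RPLP2, RPL3, RPL10A, RPL41, RPL10L, RPL12 and RPS2, with log2 fold changes from −0.91 to −0.64. The smallest fall that passed the test was in the stalk gene RPLP0, at −0.32 (SE 0.12, adjusted p = 0.0248). The members of the ribosome that did not pass were RPL17 (0.26), RPS10 (0.1), RPL30 (−0.14), RPL27 (−0.17), RPS26 (−0.23), RPS27A (−0.3), RPSA (−0.34), RPL36A (−0.36) and RPL24 (−0.42).

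All 3 genes for stalk proteins, which recruit elongation factors to the ribosome, fell in the control line. RPLP1 went from 31091 and 53612.2 normalized counts in control EtOH to 24158.5 and 20919.5 in control FM (log2 fold change −0.91, SE 0.2, adjusted p = 2.59e-05). RPLP2, its partner in the stalk dimer, went from 15853.8 and 27023.4 to 13932.3 and 12956.2 (−0.67, adjusted p = 0.00263). RPLP0, which anchors the dimers, went from 86269.3 and 107936.6 to 78751.4 and 77103.7. Without control EtOH 2, RPLP1 stayed past the threshold (−0.46, adjusted p = 0.0052), whereas RPLP2 stood at −0.24 (adjusted p = 0.224) and RPLP0 at −0.15 (adjusted p = 0.299).

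Several members have known roles beside translation, and most of these fell in control FM. RPL5 and RPL11, which bind MDM2 together with 5S ribosomal RNA, had log2 fold changes of −0.46 (SE 0.12, adjusted p = 0.000826) and −0.54 (SE 0.15, adjusted p = 0.00136). RPL5 also passed without control EtOH 2 (−0.32, adjusted p = 0.0195), and RPL11 did not (−0.31, adjusted p = 0.053). RPL23, also an MDM2 binder, fell by 0.68 on the log2 scale, and RPS3, which takes part in DNA repair, fell by 0.56. RPS6, the substrate of S6 kinase, went from 69129.8 and 97145.9 normalized counts in control EtOH to 56634.8 and 56302.9 in control FM, a log2 fold change of −0.56 (adjusted p = 0.0018) that did not pass without control EtOH 2 (−0.29, adjusted p = 0.0803). RPS14 and RPS19, both known from inherited or acquired anaemias, fell by 0.72 and 0.88. In the fit without control EtOH 2, RPL23 (−0.45), RPS14 (−0.35) and RPS19 (−0.45) passed, and RPS3 did not (−0.25, adjusted p = 0.148). RPSA, also described as a laminin receptor, had 34176.2 and 50710.6 in control EtOH and 33004.2 and 33902 in control FM (−0.34, adjusted p = 0.0785), so it did not pass.

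**Figure D3:**
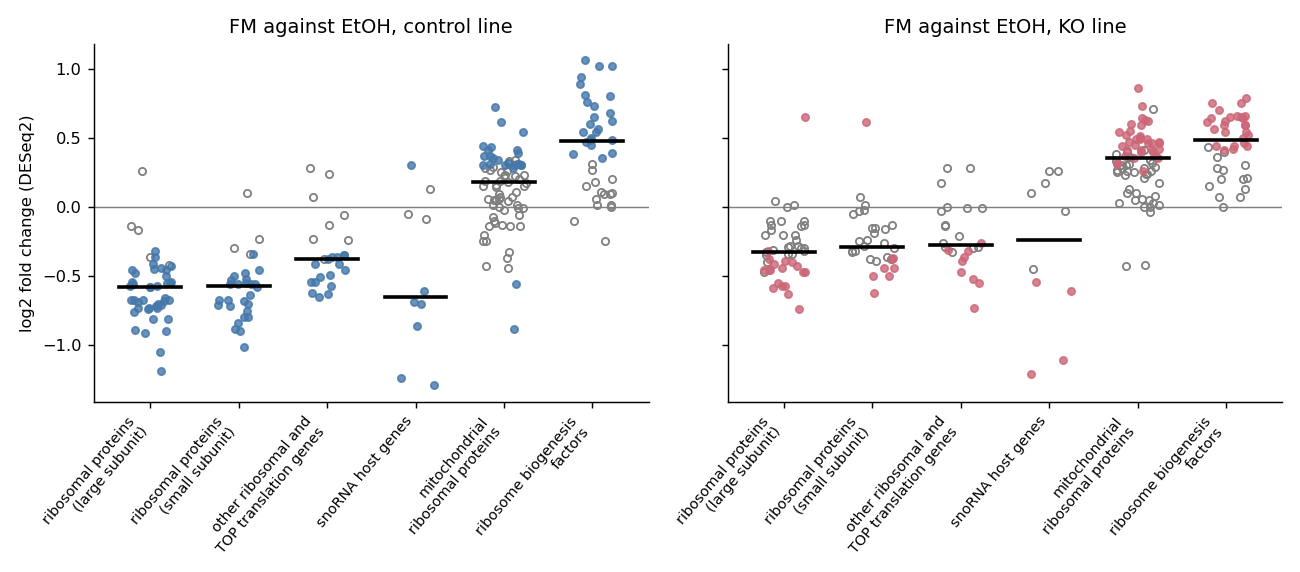
Change between FM and EtOH by gene list. Points are genes, the y axis is the DESeq2 log2 fold change in the control line (left) and the KO line (right), filled points passed an adjusted p of 0.05, open points did not, and bars are medians. Genes of the ribosome, stalk included, lie mostly below 0 in both lines (median −0.584 in control, −0.317 in KO), and ribosome biogenesis factors mostly above (0.476 and 0.48).

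In the KO line the same comparison gave a fall in fewer members. DESeq2 called 27 of 85 members lower and 6 higher, where 14.4% of all genes were lower, 17.3% higher and 31.7% called in all. The median log2 fold change was −0.301, against −0.007 for all genes and 0.104 for short protein-coding genes. Both FM samples lay below both EtOH samples in 64 members (36.8% of all genes) and above them in 7 (37.3% of all genes). The 27 that fell in KO were all among the 70 that fell in the control line. With GC and length offsets, 57 members were lower, 26 of them among the 27, and the median was −0.39. Without KO FM 1 or KO EtOH 1, 8 members were lower in either fit.

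RPL13A again fell most in KO, from 65285.9 and 59072.1 normalized counts in KO EtOH to 35855.1 and 38726.9 in KO FM, with no overlap and a log2 fold change of −0.74 (SE 0.18, adjusted p = 0.000229, DESeq2). RPL23 went from 39342.4 and 35045.2 to 23448.2 and 24682.5 (−0.63, SE 0.14, adjusted p = 9.6e-05). RPS15A went from 4460.3 and 4160.6 to 2850.4 and 2774 (−0.62, SE 0.17, adjusted p = 0.00151). A change of at least 1.5-fold was called in 8 members in KO, 4 of them falls, and in 19.3% of all genes. RPL15 was the remaining such fall, from 49222.7 and 45106.4 to 31413.6 and 31255.3 (−0.59, adjusted p = 1.44e-06). RPL28 had 17326.9 and 16038 in KO EtOH and 11665.4 and 12402.6 in KO FM, but its log2 fold change of −0.47 did not pass (adjusted p = 0.0515). The stalk genes stayed between −0.2 (RPLP1) and −0.1 (RPLP2), and none passed the test. RPS6 (−0.26), RPS19 (−0.3), RPS3 (−0.36) and RPSA (−0.03) did not pass either, while RPL5 (−0.39, adjusted p = 0.00507), RPL11 (−0.4) and RPS14 (−0.44) did.

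Across the 75 genes of the ribosome with a mean of at least 100 normalized counts, the FM change was lower in control than in KO for 75. The changes of the same genes in the lines, which share no sample, had a Spearman correlation of 0.59, given as a description over genes that share the libraries. The Spearman correlation between the FM change and transcript GC content was −0.3 in control and 0.14 in KO. Genes with the TOP letters at the annotated start (n = 41) had a median FM change of −0.67 in control and −0.31 in KO. Those with another start (n = 20) had −0.52 and −0.28. The ranges overlapped, at −1.19 to 0.1 against −0.89 to 0.26 in control and −0.74 to 0.61 against −0.59 to 0.65 in KO. The control values include control EtOH 2, and the difference by start was not tested.

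The difference between the lines did not pass the test in any member. The FM response in KO minus that in control was above 0 in 83 of 85 members and in 76 of 76 genes of the ribosome tested, with a median of 0.275. None had an adjusted p of at most 0.05, where 1.53% of all genes tested did (0.825% higher, 0.702% lower, 1.39% with at least 1.5-fold). Without adjustment, 13 of 86 members had p under 0.05 with DESeq2 and 20 with edgeR, against 8.4% and 12% of all genes. The smallest adjusted p was 0.168, for RPL36 (0.71, SE 0.27), followed by RPLP1 (0.71, SE 0.28, adjusted p = 0.176). Short protein-coding genes had a median of 0.246 in the same contrast, with 1626 of 2009 above 0. The median of the members was 0.015 without control EtOH 2. Without control EtOH 1 it was 0.518, and 53 members passed. The size of the difference in these genes therefore rested on which control EtOH library was used.

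**Figure D4:**
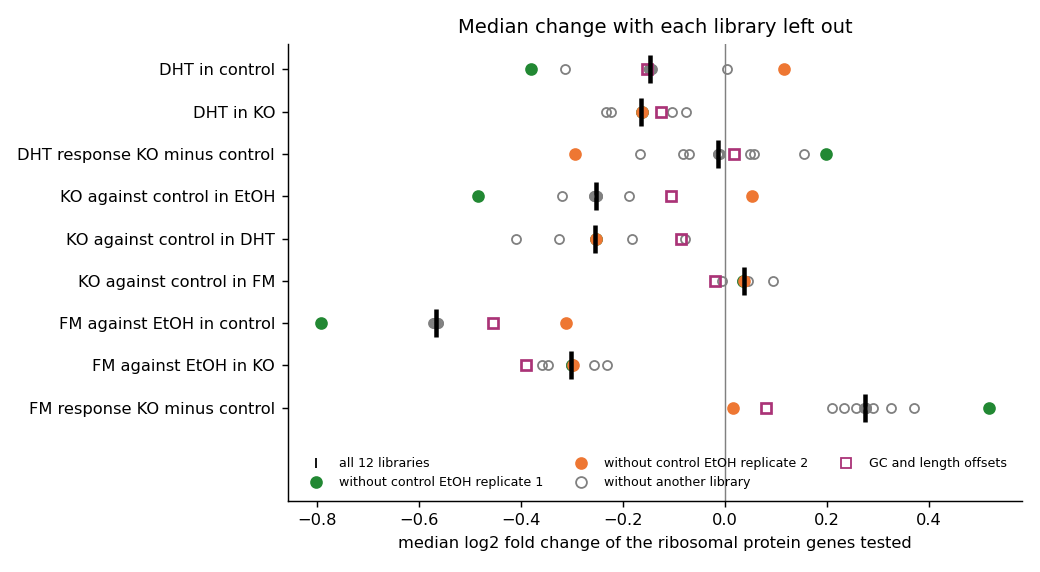
Median change of the members in each comparison with single libraries left out. The x axis is the median log2 fold change of the members tested, bars use all 12 libraries, filled circles leave out a control EtOH replicate, open circles leave out another library and squares use GC and length offsets. FM against EtOH in control stays below 0 in all fits, whereas the medians for DHT in control and for KO against control in EtOH move above 0 (0.115 and 0.053) without control EtOH 2.

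Variant copies were compared with their parent genes. RPL22L1 (chr3:170582664-170587997 on GRCh37, minus strand), a copy of RPL22, had 10355 and 10042.4 normalized counts in KO EtOH and 15135 and 16503.9 in KO FM, a rise of 0.63 on the log2 scale (SE 0.16, adjusted p = 0.000427, DESeq2). In the control line it had 12068.3 and 15968.2 in EtOH and 16910.7 and 18376.9 in FM, and the change of 0.33 did not pass (adjusted p = 0.092). It passed without control EtOH 2 (0.55, adjusted p = 0.00131). RPL22 fell in the control line, from 13738.4 and 17055.4 to 11416.6 and 11836.6 (−0.41, adjusted p = 0.0118, and −0.24 with adjusted p = 0.162 without control EtOH 2), and its KO change of −0.24 did not pass. Per length, RPL22L1 had 457 CPM per kb and RPL22 had 347, within the range that transcript choice allows for both.

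RPL3L (chr16:1993975-2007607 on GRCh37, minus strand), a copy of RPL3 known from striated muscle, rose in FM in both lines from a low level. It had 28.5 and 35.8 normalized counts in control EtOH and 113.7 and 89.5 in control FM (log2 fold change 1.66, SE 0.34, adjusted p = 7.82e-06, and 1.83 without control EtOH 2). In KO it had 39.6 and 37.6 in EtOH and 116.6 and 177.6 in FM (1.93, SE 0.33, adjusted p = 4.55e-08). RPL3 itself fell in both lines, by 0.67 in control and 0.55 in KO. Its level per length was 1760 CPM per kb, and that of RPL3L was 1.21.

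RPS27L, a copy of RPS27, fell with its parent. It had 2262 and 2405.2 normalized counts in control EtOH and 1752.6 and 1879.2 in control FM (log2 fold change −0.36, adjusted p = 0.0168), and 2602 and 2400.7 in KO EtOH and 1713.4 and 1876.4 in KO FM (−0.48, adjusted p = 0.00105). The control change of RPS27L was −0.32 (adjusted p = 0.0713) without control EtOH 2. RPS27 had −0.68 in control and −0.44 in KO, both past the threshold. RPL26L1 rose in KO FM (0.4, adjusted p = 0.0363) and had 0.14 in control (adjusted p = 0.551), where RPL26 fell by 0.5 in control (−0.23 with adjusted p = 0.553 without control EtOH 2) and had −0.1 in KO (adjusted p = 0.735). RPL36AL had −0.08 in control and 0.14 in KO, neither past the threshold, and RPL36A had −0.36 and −0.34, on few counts.

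RPL10L, a retrocopy of RPL10 best known from testis, had −0.66 in control (adjusted p = 0.000899, and −0.36 with adjusted p = 0.084 without control EtOH 2) and −0.06 in KO (adjusted p = 0.853). Its sequence is close to that of RPL10, which had −0.43 and −0.32, so reads of RPL10 could be counted to it. RPS4Y1 had −0.57 in control and −0.54 in KO and RPS4X −0.5 and −0.28, with the KO change of RPS4X not past the threshold. RPL39L was counted at 6.7 or below in every sample and had no adjusted p, whereas its parent RPL39 fell by 0.7 in control. RPL17 and RPS10 rose in KO FM by 0.65 and 0.61 (adjusted p = 0.0274 and 0.017), on 153.7 to 265.8 normalized counts a sample in the KO libraries of FM and EtOH.

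RPL7L1 and RPS19BP1 were taken by symbol and classed neither as proteins of the ribosome nor as variant copies. RPL7L1 acts in building the large subunit. RPL7L1 rose from 8010.7 and 7883.1 normalized counts in control EtOH to 10578.4 and 11033.2 in control FM (log2 fold change 0.44, SE 0.08, adjusted p = 1.45e-06), and from 8033.3 and 7915.5 to 9663.8 and 9283.3 in KO (0.25, adjusted p = 0.0127). The control change of RPL7L1 was 0.43 without control EtOH 2 and passed. RPL7 fell by 0.58 in control (−0.33 with adjusted p = 0.0677 without control EtOH 2) and by 0.46 in KO. RPS19BP1 had −0.22 in control and 0.43 in KO, neither past the threshold.

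**Figure D5:**
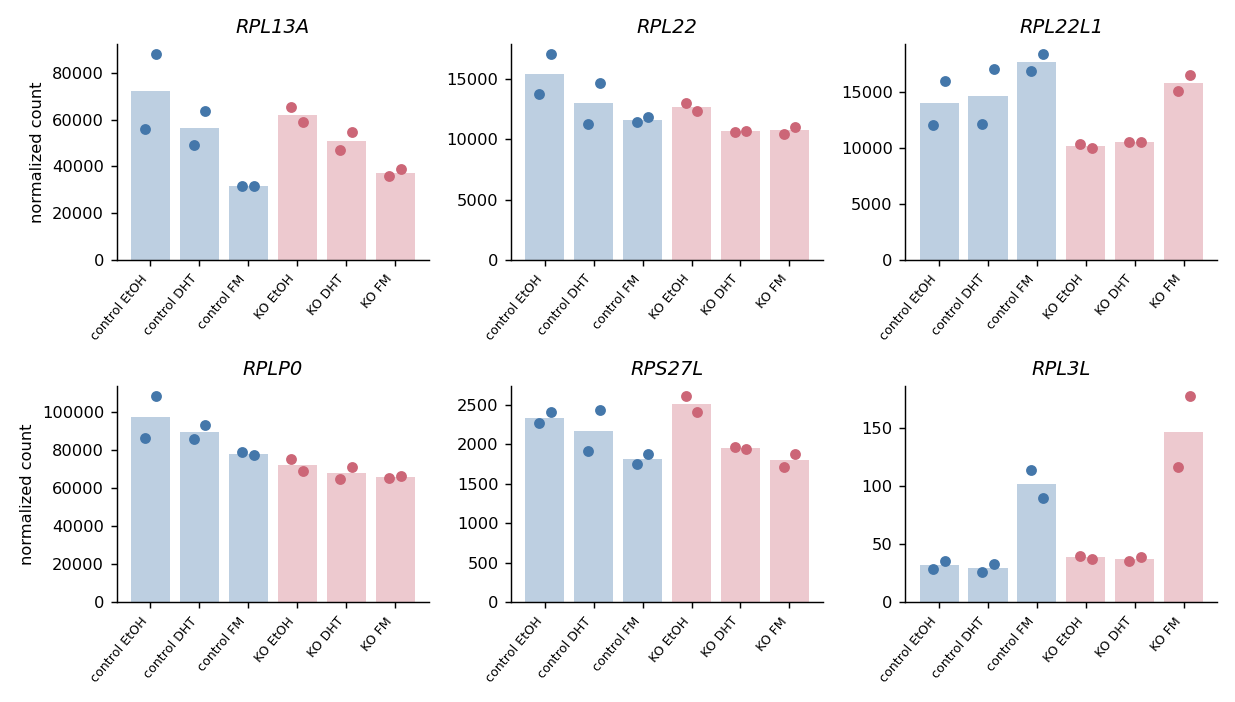
Normalized counts of 6 members. Bars are group means from 0 and points are the 2 replicates of a group, control in blue and KO in red. RPL13A falls in FM in both lines, RPL22L1 is higher in KO FM than in KO EtOH while RPL22 is not, and RPL3L stands between 89.5 and 177.6 in FM and at 39.6 or below in the other samples.

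Loss of Bag-1L was compared in each medium. In EtOH, DESeq2 called 5 of 85 members lower in KO and 0 higher, where 5.1% of all genes were lower, 4.71% higher and 9.81% called in all. The share of members called lower was thus close to that of all genes, and the share called in all was below it. With GC and length offsets, 11 were lower and 4 higher, with the share of all genes called in that fit not given. The median log2 fold change was −0.253, against −0.118 for short protein-coding genes. RPLP0 was lowest in adjusted p, with 86269.3 and 107936.6 normalized counts in control EtOH and 75204.6 and 68979.9 in KO EtOH (−0.43, SE 0.12, adjusted p = 0.00562). The others were RPL22L1 (−0.46, adjusted p = 0.0419), RPL6 (−0.41, adjusted p = 0.0239), RPS23 (−0.4, adjusted p = 0.0208) and RPL10 (−0.34, adjusted p = 0.0403). In 13 members both KO samples lay below both control samples, as in 23.5% of all genes, and in 2 they lay above, as in 23.4%. No member was called with at least 1.5-fold, which 5.11% of all genes were. Without control EtOH 2 none of the 5 passed, RPLP0 stood at −0.26 (adjusted p = 0.0822), and the median of the members was 0.053 with 3 members called higher. Without control EtOH 1, 64 members were called lower.

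In DHT, 10 of 85 members were lower in KO and 0 higher, where 8.73% of all genes were lower, 7.63% higher and 16.4% called in all. With GC and length offsets, 12 were lower and 4 higher, again without the share of all genes called in that fit. RPL36AL went from 9837.3 and 12755.2 normalized counts in control DHT to 7585.5 and 8108.7 in KO DHT (log2 fold change −0.53, SE 0.16, adjusted p = 0.0112). RPL41, which encodes a very short protein of the large subunit, went from 35389.6 and 46389.7 to 27052.5 and 29469.5 (−0.53, SE 0.18, adjusted p = 0.0219). RPS27A, made as a fusion with ubiquitin, went from 15310.2 and 22441.8 to 13293.5 and 13764.1 (−0.48, SE 0.18, adjusted p = 0.0424). Other calls were RPL22L1, RPS26, RPL6, RPL35A, RPLP0 and RPL10, between −0.47 and −0.39. RPL10, RPL22L1, RPL6 and RPLP0 were called in both EtOH and DHT, 4 of 5 and 4 of 10. The share of such shared calls over all genes is not given. Over 11374 genes, the deviations of same-numbered samples correlated at 0.692 between control EtOH and control DHT, so the overlap is not taken as a repeat. Both KO samples lay below both control samples in 46 members (30.7% of all genes) and above them in 2 (26.8%). No member was called with at least 1.5-fold, which 7.98% of all genes were. Without control DHT 2 no member passed, and the median was −0.078 in place of −0.255. Without KO DHT 1 no member passed either, without KO DHT 2 there were 2 calls, and without control DHT 1 there were 23.

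In FM, 2 of 85 members were higher in KO and 0 lower, where 9.27% of all genes were higher, 9.24% lower and 18.5% called in all. A fit of the 4 FM samples alone called 26 higher and 7 lower, and the share of all genes called in that fit is not given. RPL30 had 8378.6 and 8330.1 normalized counts in control FM and 10149.7 and 10571.1 in KO FM (log2 fold change 0.31, SE 0.11, adjusted p = 0.0281). RPS20 had 11512.7 and 11784.1 against 15165.8 and 15879.2 (0.41, SE 0.15, adjusted p = 0.0435). Neither overlapped, and 38 members lay higher in both KO samples than in both control samples, as did 34.7% of all genes, and 14 lay lower, as did 38.6%. No member was called with at least 1.5-fold, which 8.01% of all genes were. Neither gene passed when any FM library was left out. The median of the members was 0.037, or −0.02 with GC and length offsets, where 5 were called higher and 8 lower. RPLP0, lower in KO in the other media, had −0.24 (adjusted p = 0.137) in FM.

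With DHT the number of members called varied with the fit. In the control line 1 of 85 members was lower after DHT and 0 higher, where 8.75% of all genes were lower, 11.2% higher and 19.9% called in all. In KO 2 were lower and 0 higher, where 5.57% were lower, 8.02% higher and 13.6% called in all. No member was called with at least 1.5-fold in either line, which 11.4% of all genes were in control and 7.68% in KO. RPL5 was called in both lines, from 25357.6 and 30181.7 normalized counts in control EtOH to 19460.5 and 23517.1 in control DHT (log2 fold change −0.37, SE 0.12, adjusted p = 0.014) and from 26695.1 and 24636.7 to 20315.8 and 20459.4 in KO (−0.33, SE 0.12, adjusted p = 0.0431). RPS27L was the other call in KO, from 2602 and 2400.7 to 1958.9 and 1941.3 (−0.36, SE 0.13, adjusted p = 0.0386). In KO, 47 members lay lower in both DHT samples than in both EtOH samples (30.6% of all genes) and 6 higher (28.4%), and in control 3 lay lower (25% of all genes) and 1 higher (24.6%). The members had a median of −0.147 in control and −0.164 in KO. In the control line this median became 0.115 without control EtOH 2, against 0.011 for all genes and 0.211 for short protein-coding genes. RPL5 was then no longer called. Without control EtOH 1 the median of the members was −0.38. Without control DHT 2, 14 members were called lower in control (median −0.314), and without control DHT 1, 2 were called higher. With GC and length offsets, 21 were lower and 3 higher in control, and 11 lower and 2 higher in KO. Without adjustment, 35 and 24 of 86 members had p under 0.05 in that DESeq2 fit, against 24.4% and 19.2% of all genes. In KO no member passed when any KO EtOH or KO DHT library was left out.

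No member passed the test of a difference between the lines in the DHT response. None had an adjusted p of at most 0.05 with DESeq2 or edgeR. With DESeq2, 0.438% of all genes passed (0.237% higher, 0.2% lower, 0.408% with at least 1.5-fold). Without adjustment, 0 members had p under 0.05 with DESeq2 and 1 with edgeR, against 2.62% and 5.08% of all genes. The median difference was −0.013, against −0.294 without control EtOH 2 and 0.198 without control EtOH 1.

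Genes that work with the ribosome were set beside its proteins, against 16.2% of all genes lower and 18.8% higher in control FM, and 14.4% and 17.3% in KO FM. The control values are also given without control EtOH 2, where 12.7% of all genes were lower and 18.1% higher, a fit of these lists added after the data were seen. Of 25 listed genes for other ribosomal and translation proteins, 17 had a promoter entry, and 15 of these had the TOP letters at the annotated start. Of the 24 measured, 16 fell and 0 rose in control FM (median log2 fold change −0.384), and 9 fell and 0 rose in KO (−0.271). Without control EtOH 2, 7 fell and 2 rose in control (−0.19). EEF1A1 had −0.62 (SE 0.12, adjusted p = 5.27e-06) in control and −0.55 in KO, and EEF2, the translocation factor, had −0.54 and −0.52. The control changes of EEF1A1 (−0.45) and EEF2 (−0.47) passed without that library. Of 10 host genes of small nucleolar RNAs, 6 fell and 1 rose in control and 4 fell and 0 rose in KO. GAS5 had −1.24 (SE 0.15, adjusted p = 4.4e-15) in control and −1.21 in KO, and EPB41L4A-AS1 had −1.29 and −1.11. In the fit without control EtOH 2, 4 host genes fell and 0 rose in control, with GAS5 at −1.02 and EPB41L4A-AS1 at −0.99.

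Ribosome biogenesis factors moved the other way. In control FM 25 of 40 rose and 0 fell (median 0.476), and in KO FM 26 rose and 0 fell (0.48). In the fit without control EtOH 2, 29 rose and 0 fell in control (0.519). DDX21, a nucleolar helicase, had 1.02 (SE 0.1, adjusted p = 2.01e-20) in control and 0.7 in KO, and TSR1, which acts in small subunit assembly, had 0.94 and 0.66. NCL had 0.6 and 0.59. Without that library the control values were 0.93 for DDX21, 0.87 for TSR1 and 0.73 for NCL. Mitochondrial ribosomal protein genes also did not follow the cytosolic ones, with 21 higher and 2 lower of 75 in control (median 0.184) and 34 higher and 0 lower in KO (0.352). The control counts were 42 higher and 0 lower (0.36) without control EtOH 2.

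Of 16 regulators of ribosomal protein synthesis, 5 rose and 3 fell in control FM, and 7 rose and 4 fell in KO FM. MYC, a transcription factor that raises ribosome production, had −0.66 (SE 0.1, adjusted p = 1.63e-09) in control and −0.49 in KO. MTOR, the kinase above S6 kinase, had 1.21 (SE 0.17, adjusted p = 2.69e-11) and 1.02. LARP1, which binds TOP mRNAs, had 0.23 and −0.06, neither past the threshold, while LARP4 had 0.94 and 0.64. DEPTOR, an mTOR inhibitor, had −0.88 and −0.51. The fit without control EtOH 2 gave 5 rises and 3 falls in control, with MYC at −0.7, MTOR at 0.98, LARP4 at 0.84 and DEPTOR at −0.88.

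With DHT, 11 of 40 biogenesis factors rose in control and 8 in KO, with 0 falls, where 11.2% and 8.02% of all genes were higher. Of the 24 other ribosomal and translation genes, 4 and 3 fell with 0 rises, where 8.75% and 5.57% of all genes were lower. Without control EtOH 2 the control medians were 0.224 for biogenesis factors and 0.013 for the other ribosomal and translation genes. In KO against control, 8 of 40 biogenesis factors fell in EtOH, 16 in DHT and 12 in FM, with 0, 0 and 1 rises. Of all genes, 5.1%, 8.73% and 9.24% were lower and 4.71%, 7.63% and 9.27% higher. Without control EtOH 2 the median of the biogenesis factors in EtOH was −0.159.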

How the data were processed

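Libraries of stranded poly(A) RNA were made and sequenced by the authors. According to the submitters' processing notes and the methods, reads were handled with CASAVA 1.7, mapped to GRCh37 with TopHat2 2.0.11 and counted per Ensembl gene with HTSeq 0.5.3p3, and the deposited values are raw read counts per gene. How HTSeq treated strand, and which Ensembl release it read, is not given in the sources used here. HTSeq sets aside reads that align to several places, between 15.9% and 20.0% of the reads tallied, and reads in overlapping genes, so near-identical and overlapping genes are counted low.

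Symbols and transcript lengths came from GENCODE on GRCh37, which held 55665 of 63677 identifiers, and the length of a gene was the median over its basic coding transcripts. Genes with at least 10 counts over 12 samples (26156) were fitted with DESeq2 1.42.0 in R 4.3.3, with 1 coefficient per group over all 12 samples, and p-values were adjusted by Benjamini-Hochberg over all genes. A gene was called at an adjusted p of at most 0.05. Normalized counts are counts divided by DESeq2 size factors. Fold changes were not shrunken. The fit was also run on simulated counts, drawn gene by gene without any shift shared by many genes of a library. That run therefore says nothing of calls where the members moved together.

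The genes named were, for each comparison, the 3 largest rises and falls among called members with a mean of at least 100 normalized counts, members called with at least 1.5-fold, variant copies and parents, stalk genes, genes with roles beside translation, and the highest and lowest levels per length. Other members named, such as RPL36 and RPL27, and the genes shown from the other lists were chosen after their values were seen. Members and lists were chosen with earlier results of these data known. Every sample was mapped to a group by its title. Replicates are the labelled biological duplicates, and with 2 a group their spread is imprecise. Replicate numbers were shared by all groups, but the deviations of same-numbered samples had correlations between −0.415 and 0.692 over 15 pairs of groups, so they were not taken to pair samples. Alternatives were edgeR 4.0.16 with TMM, TMM size factors, other count filters, a replicate block, thinned counts, GC and length offsets, added pseudogene reads, a 1.5-fold minimum, only the genes of the ribosome itself, only the samples compared, and each library left out in turn. Some genes are not reported here.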

Additional observations from a re-analysis of the deposited data

Results flagged for a closer look

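Reads on pseudogenes lie outside the counts used for the members. For 5 members with at least 10 counts, more than 25% of the reads of the gene and its named pseudogenes together were counted to the pseudogenes. The share was 98.2% for RPL36A, 84.3% for RPL17, 49.1% for RPS10, 37.3% for RPS3A and 25.1% for RPS28. RPS3A and RPS28 had high counts of their own and fell in control FM, by 0.58 and 0.84 on the log2 scale. RPS3A had 9837.8 and 14126 normalized counts in control EtOH and 7976.6 and 8005.2 in control FM. RPS28 had 7702.3 and 13239.7 in control EtOH and 6172.1 and 5496.6 in control FM. For both genes control EtOH 2 was the higher EtOH library, and fits without it are not given for them. Groups of 2 were too small for a test of single samples within a group.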

How the results depend on the processing

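Counts are of members called, and the shares of all genes called under the same settings are not given beside them. With all libraries they were 1 (DHT in control), 2 (DHT in KO), 5, 10 and 2 (KO against control in EtOH, DHT and FM), 72 and 33 (FM against EtOH in control and KO) and 0 for both differences of responses, which stayed at 0 under every setting but 1. A 1.5-fold minimum gave 0, 0, 0, 0, 0, 38 and 8. edgeR gave 3, 4 and 1 for KO against control in EtOH, DHT and FM, and 0 for DHT in KO. TMM size factors gave 2 and 1 for DHT in control and KO and 6 for KO against control in DHT. GC and length offsets gave 24 and 13 for DHT in control and KO, 15, 16 and 13 for KO against control in EtOH, DHT and FM (the last with 8 of 13 lower, against 2 of 2 higher), and 64 for FM in KO. Fits of only the samples compared gave 0 and 14 for DHT in control and KO, 0 and 33 for KO against control in EtOH and FM, and 65 for FM in KO. A filter of 10 counts in every sample gave 4 for DHT in control, and only the genes of the ribosome itself gave 1 for DHT in KO. The replicate block gave 4 for DHT in control (2 higher), and 3, 5, 13, 2, 74, 38, 0 and 0 for the others in the same order, with no other change over 1.5 times. Leaving out each replicate in turn gave 1 to 62 for DHT in control, 0 to 10 for DHT in KO, 0 to 64, 0 to 35 and 0 to 16 for KO against control in EtOH, DHT and FM, 46 to 79 for FM in control, 10 to 58 for FM in KO and 0 to 53 for the difference of FM responses. The calls for DHT in control turned upward without control EtOH 2 or control DHT 1, and those for KO against control in EtOH without control EtOH 2. Short protein-coding genes also had medians above 0 in these comparisons without control EtOH 2, 0.211 for DHT in control and 0.062 for KO against control. The share of counts moved by more than the replicate SD to 8.58% in KO EtOH with normalized counts, to 6.98%, 8.28% and 7.57% in control FM, KO DHT and KO FM with pseudogene reads added, to 6.38% in control FM with only the genes of the ribosome, and to 6.97% and 6.86% in control FM and KO FM with offsets. The cause of these shifts was not tested. Leaving out a library also changes the estimate of spread shared by all groups.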
